A study of Mus musculus with 20 samples.

Results

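Abat encodes the mitochondrial 4-aminobutyrate aminotransferase, and 8 further genes encode the enzymes that take valine carbon through propionyl-CoA to succinyl-CoA. The set held Acad8, Hibch, Hibadh, Aldh6a1, Pcca, Pccb, Mcee and Mut beside Abat. All 9 genes were listed among the 25052 genes of the files and all 9 passed the filter on low values, which left 12775 genes. Abat was chosen because its level was far lower on a high-fat diet (HFD) in these same libraries, so its difference between diets is given as a description with no test. The 8 enzymes were chosen by their place in the pathway.

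Poly(A) RNA of frozen left ventricle came from 20 male mice in 4 groups of 5, and every mouse was homozygous for a floxed allele of Acacb, the gene of acetyl-CoA carboxylase ACC2. The iKO groups also carried MerCreMer, a Cre recombinase that tamoxifen activates, and the WT groups were littermates that lacked it. Both genotypes were injected with tamoxifen at 20 mg/kg for 5 days from 8 weeks of age, and 4 weeks later were placed on chow or on the Research Diets D12492 HFD for 16 weeks. The promoter that drives MerCreMer is not given in the sources used here, and no group had the Cre without the floxed alleles, so loss of ACC2 and presence of the Cre cannot be told apart. Values are FPKM, fragment counts scaled by transcript length and by the total of the library. Acacb itself was at 37.4 to 41.1 FPKM in WT and 8.37 to 9.46 in iKO among chow libraries, and at 34.9 to 41.9 and 9.05 to 11.9 among HFD libraries, as the genotype labels say.

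The reads assigned to genes were estimated at 12.5 M (iKO chow library RT7) to 31.9 M (WT HFD library RT18) per library. Libraries RT1 to RT10 were all from chow and RT11 to RT20 all from HFD, so anything that went with this numbering cannot be told apart from diet. Library RT1 (WT chow) and library RT4 (iKO chow) stood apart with summed atrial muscle markers of 691 and 358 FPKM. The counts of called members and of all called genes were repeated without both, and those of the other gene lists and markers were not. All 7 cardiomyocyte markers were present, at a summed 22280 to 32080 FPKM per library, as the tissue label says.

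Valine is first transaminated and oxidatively decarboxylated to isobutyryl-CoA in mitochondria. ACAD8 oxidises isobutyryl-CoA, HIBCH frees 3-hydroxyisobutyrate from its CoA ester, HIBADH oxidises it to methylmalonate semialdehyde, and ALDH6A1 turns that into propionyl-CoA. Propionyl-CoA carboxylase, built of PCCA and PCCB, uses biotin to make methylmalonyl-CoA, which MCEE epimerises and the cobalamin-dependent mutase MUT converts to succinyl-CoA of the tricarboxylic acid cycle. ABAT, which uses pyridoxal phosphate, removes the amino group of GABA, beta-alanine and beta-aminoisobutyrate, a side product of valine and thymine breakdown. In heart muscle, branched-chain amino acid breakdown is a minor fuel route and propionyl-CoA is one of the entries that refill the cycle.

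On the per-length FPKM scale the members spanned a wide range in WT on chow, with Hibadh the highest at 149 ± 3.75 FPKM (SD, n = 5). Aldh6a1 followed at 97.3 ± 2.52, Mcee at 82.5 ± 2.88 and Hibch at 51.7 ± 1.59. Pccb stood at 43.6 ± 1.40, Mut at 37.0 ± 1.499, Pcca at 32.5 ± 1.83 and Acad8 at 21.2 ± 0.875. Abat was the lowest at 7.182 ± 1.124. In this order the library ranges of neighbours did not overlap, except those of Mut (34.9 to 38.9) and Pcca (30.4 to 35.3). The coefficient of variation over the 5 mice of a group lay between 2.12% and 7.99% for the 8 enzymes and between 15.6% and 22.2% for Abat.

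Abat (ENSMUSG00000057880.12) lies at chr16:8513429-8621568 on the plus strand of GRCm38 and has 7 annotated transcripts. In WT on chow its FPKM were 7.79 (RT1), 8.23 (RT3), 7.57 (RT5), 6.98 (RT8) and 5.34 (RT10). In WT on HFD they were 1.44 (RT12), 1.96 (RT14), 1.40 (RT16), 1.92 (RT18) and 1.30 (RT19). All 5 HFD libraries lay below the lowest chow library, RT10, by a wide margin. The means were 7.182 ± 1.124 and 1.60 ± 0.311 FPKM (SD, n = 5 each), 4.48-fold lower on HFD.

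In iKO on chow the Abat values were 6.49 (RT2), 6.92 (RT4), 5.49 (RT6), 4.69 (RT7) and 4.74 (RT9) FPKM. In iKO on HFD they were 1.32 (RT11), 0.96 (RT13), 1.62 (RT15), 1.19 (RT17) and 0.99 (RT20). Again no HFD library reached the lowest chow library. The means were 5.67 ± 1.01 and 1.22 ± 0.270 FPKM (SD, n = 5 each), 4.66-fold lower on HFD. On the log2(FPKM + 1) scale the differences between diets were -1.65 in WT and -1.58 in iKO, the third lowest and the second lowest of the 12775 genes, which places the gene by the contrast that chose it and carries no test. With a pseudocount of 0.1, which shrinks low values less, they were -2.10 and -2.14. Scaling by median of ratios gave -1.58 and -1.51. An FPKM of 1 is a low level, and the estimated reads per kilobase of transcript for Abat were 20.3 to 61.3 on HFD and 58.7 to 173 on chow.

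**Figure D1:**
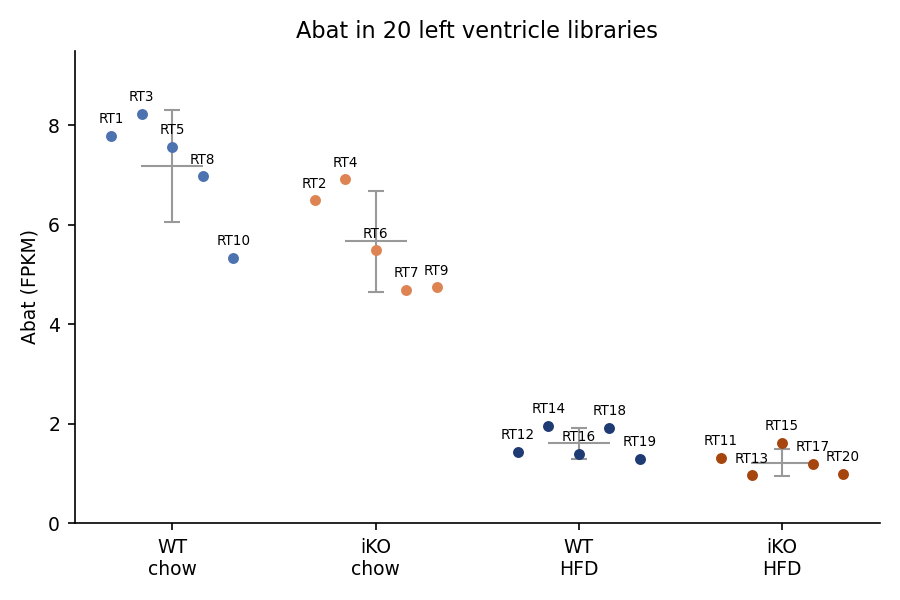
Abat in FPKM (vertical axis) for each of the 20 libraries, with the mean and SD of each group of 5 mice in grey. The HFD libraries sit between 0.96 and 1.96 FPKM, all below the lowest chow library at 4.69.

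For genotype, which played no part in choosing Abat, the limma test was run on log2(FPKM + 1) with Benjamini-Hochberg adjustment over all 12775 genes and calls at an adjusted p under 0.05. On chow the log2 difference of Abat between iKO and WT was -0.30 (SE 0.11, adjusted p = 0.254), and 2 of 5 iKO libraries lay below the lowest WT library. On HFD the difference was -0.23 (SE 0.11, adjusted p = 0.332), with 3 of 5 iKO libraries below the lowest WT library. Averaged over both diets it was -0.26 (SE 0.08, adjusted p = 0.0563). None of the 3 passed the threshold. Under median-of-ratios scaling the averaged difference did pass, at -0.32 (adjusted p = 0.0251). Its genotype by diet interaction was 0.06 (SE 0.16, 95% interval -0.27 to 0.40, adjusted p = 0.999), and with a pseudocount of 0.1 it turned to -0.04 (adjusted p = 0.998). The interval leaves room for a difference between the genotypes' diet responses of that size in either direction.

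Among the 8 enzymes of the valine and propionate route, 3 fell in WT on HFD and none rose (Hibadh, Aldh6a1 and Pcca), against 8.04% of all genes tested called, 7.27% lower and 0.767% higher. In iKO, 4 of 8 fell (Hibadh, Aldh6a1, Pcca and Pccb), against 10% of all genes called, 8.36% lower and 1.65% higher. The median log2 difference of the 8 was -0.15 in WT and -0.16 in iKO, while the median of all genes was -0.08 and -0.07. These counts depended on the scaling. When each library was divided by its median ratio to the other libraries, 0 of 8 enzymes were called in either genotype, although 7 of the 8 kept a difference below 0, with Hibch turning to 0.04 in WT and standing at 0.09 in iKO. With FPKM rescaled to an equal total in every library (TPM), an alternative chosen after seeing the data, 4 of 8 fell in WT and 5 of 8 in iKO, with Mcee added in both. The median of all genes with TPM was -0.11 in WT and -0.09 in iKO, so all genes shifted further down as well. Without libraries RT1 and RT4 the counts were also 4 and 5, and of all genes 178 rose and 661 fell in iKO. The calls over all genes are not given here for TPM, nor for WT without RT1 and RT4. The enzyme counts of those settings therefore lack a background.

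Of all genes tested, the same median-of-ratios scaling changed the calls from 98 higher and 929 lower to 178 higher and 149 lower for diet in WT. In iKO they went from 211 higher and 1068 lower to 328 higher and 232 lower. Summed cardiomyocyte markers moved with diet in the same direction, at 28310 to 29340 (WT) and 28020 to 32080 (iKO) FPKM on chow against 22280 to 27780 (WT) and 23470 to 25300 (iKO) on HFD, with none of the 7 at 0. Of these 7 markers 5 fell with HFD in WT and 4 in iKO, and under median-of-ratios scaling 0 and 1 fell. Summed atrial muscle markers were also lower on HFD, at 57.8 to 691 (WT) and 93.6 to 358 (iKO) FPKM on chow against 21.4 to 69.4 (WT) and 41.5 to 115 (iKO) on HFD, with overlap in both genotypes. Of the 2 atrial markers tested, 1 fell with HFD in WT and 0 were called in iKO, with medians of -1.21 and -0.98. Under median-of-ratios scaling 0 were called in either genotype, with medians of -1.13 and -0.90. The part of both marker lists in the differences of Abat and the enzymes was not tested, and in whole tissue fewer cells of a type cannot be told apart from less RNA per cell.

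The upstream sequences of the 4 enzymes that fell with HFD in iKO are shown because these were the members called lower there as deposited, and none of them was called under median-of-ratios scaling. They are RefSeq promoters on GRCm38.p6, 5′ to 3′ on the gene's strand, ending before the first base of that gene in GENCODE M21. Capitals mark matches, on either strand, to 6 motifs searched in the 250 bases before each RefSeq start. Pcca and Aldh6a1 each have a further RefSeq entry, at chr14:122484115-122484364 and chr12:84448318-84448567. These entries held none of the 6 motifs and are not shown.
Hibadh: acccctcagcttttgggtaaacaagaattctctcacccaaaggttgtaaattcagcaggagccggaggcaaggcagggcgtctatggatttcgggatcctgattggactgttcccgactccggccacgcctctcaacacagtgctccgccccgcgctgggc
Aldh6a1: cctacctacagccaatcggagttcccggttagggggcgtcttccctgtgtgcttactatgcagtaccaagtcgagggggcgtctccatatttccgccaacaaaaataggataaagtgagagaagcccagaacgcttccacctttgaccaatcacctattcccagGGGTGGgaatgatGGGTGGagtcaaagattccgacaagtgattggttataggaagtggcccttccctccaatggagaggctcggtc
Pcca: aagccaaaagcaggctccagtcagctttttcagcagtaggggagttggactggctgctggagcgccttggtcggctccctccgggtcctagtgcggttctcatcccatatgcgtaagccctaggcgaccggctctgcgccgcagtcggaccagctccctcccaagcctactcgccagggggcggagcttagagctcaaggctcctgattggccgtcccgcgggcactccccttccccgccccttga
Pccb: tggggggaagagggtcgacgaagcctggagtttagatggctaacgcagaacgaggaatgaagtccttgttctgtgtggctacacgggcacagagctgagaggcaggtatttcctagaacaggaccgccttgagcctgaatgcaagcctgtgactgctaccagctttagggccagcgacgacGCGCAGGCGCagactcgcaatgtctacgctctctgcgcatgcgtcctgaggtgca
They lie at chr6:52640390-52640550, chr12:84451025-84451274, chr14:122534078-122534323 and chr9:101034899-101035134, those of Pcca on the plus strand and the other 3 on the minus strand. Pccb held a match, GCGCAGGCGC, to the NRF1 motif, which is GCGCA and GCGC around any 1 base. Hibadh held one too, 57 to 66 bases before its RefSeq start, in bases that GENCODE places inside the gene and that are not shown. This motif was found in 3.74% of the 32851 promoters of that length. Aldh6a1 held 2 matches to the KLF-type box CCACCC, which 28.1% of all promoters hold, and Pcca held none of the 6. Of the enzymes searched but not shown, Acad8, which was not called for diet, held 1 match to this box. Hibch and Mcee held none of the 6. The PPAR element (AGGTCA repeated after any 1 base), the ERR element TCAAGGTCA, the E-box CACGTG and the ATF4 element TTGCATCA, held by 0.03%, 0.39%, 6.02% and 0.79% of all promoters, were in none of the 7 members with an entry. These were Acad8, Hibch and Mcee beside the 4 shown. Abat and Mut were not searched. A match here is a string of letters, not a bound site.

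Hibadh (ENSMUSG00000029776.11, chr6:52546228-52640389, minus strand), the dehydrogenase of 3-hydroxyisobutyrate, had the smallest p-values of the 8 for diet. Its FPKM in WT on chow were 151 (RT1), 154 (RT3), 148 (RT5), 144 (RT8) and 150.01 (RT10), and in WT on HFD 138 (RT12), 136 (RT14), 131 (RT16), 134 (RT18) and 133 (RT19). In iKO they were 148 (RT2), 139.78 (RT4), 146 (RT6), 144 (RT7) and 142 (RT9) on chow and 127 (RT11), 121 (RT13), 125 (RT15), 128 (RT17) and 125 (RT20) on HFD. In both genotypes every HFD library lay below every chow library in FPKM as deposited. Overlap of single genes, here and below, was not counted over all genes and was not examined under other scalings. As deposited, 78.6% of all genes in WT and 73.8% in iKO had a diet difference below 0. Hibadh fell by 9.99% in WT, a log2 difference of -0.15 (SE 0.03, limma adjusted p = 0.00722). In iKO it fell by 12.9%, a log2 difference of -0.20 (SE 0.03, limma adjusted p = 0.000443). Under median-of-ratios scaling the differences were -0.05 (adjusted p = 0.718) and -0.11 (adjusted p = 0.19).

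Aldh6a1 (ENSMUSG00000021238.10, chr12:84430717-84451004, minus strand) encodes the dehydrogenase that releases propionyl-CoA. In WT its FPKM were 96.3 (RT1), 98.4 (RT3), 93.5 (RT5), 98.2 (RT8) and 100.04 (RT10) on chow, and 88.8 (RT12), 86.2 (RT14), 81.6 (RT16), 88.2 (RT18) and 75.7 (RT19) on HFD, with no overlap. In iKO they were 94.3 (RT2), 82.5 (RT4), 93.5 (RT6), 92.2 (RT7) and 92.7 (RT9) on chow, and 85.2 (RT11), 68.7 (RT13), 79.2 (RT15), 77.7 (RT17) and 75.7 (RT20) on HFD. Here the chow library RT4 lay below the HFD library RT11, and the other 4 chow libraries lay above all HFD libraries. Aldh6a1 fell by 13.6% in WT (log2 difference -0.21, SE 0.05, limma adjusted p = 0.0192). In iKO it fell by 15.1% (log2 difference -0.23, SE 0.05, limma adjusted p = 0.00758). Under median-of-ratios scaling it stood at -0.11 (adjusted p = 0.487) and -0.15 (adjusted p = 0.245).

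Pcca (ENSMUSG00000041650.15, chr14:122534324-122891100, plus strand) encodes the biotin-bearing subunit of propionyl-CoA carboxylase. Its FPKM in WT were 30.4 (RT1), 35.3 (RT3), 32.8 (RT5), 32.7 (RT8) and 31.4 (RT10) on chow and 28.1 (RT12), 26.6 (RT14), 28.3 (RT16), 29.0 (RT18) and 28.9 (RT19) on HFD. In iKO they were 28.7 (RT2), 27.3 (RT4), 28.5 (RT6), 32.2 (RT7) and 28.2 (RT9) on chow and 27.3 (RT11), 23.7 (RT13), 26.1 (RT15), 24.3 (RT17) and 26.1 (RT20) on HFD. The diets did not overlap in WT, and in iKO they came within 0.05 FPKM of each other, at 27.32 in RT4 and 27.27 in RT11. Pcca fell by 13.3% in WT (log2 difference -0.20, SE 0.05, limma adjusted p = 0.0185). In iKO it fell by 12% (log2 difference -0.18, SE 0.05, limma adjusted p = 0.0287). Under median-of-ratios scaling the differences of Pcca were -0.10 (adjusted p = 0.509) and -0.09 (adjusted p = 0.494). The call in WT was lost without RT3 or without RT14 (adjusted p up to 0.0615), and that in iKO without RT7, RT13 or RT17 (up to 0.0868).

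Pccb (ENSMUSG00000032527.13, chr9:100982032-101034898, minus strand) encodes the other subunit of the carboxylase. In WT its FPKM were 41.5 (RT1), 45.1 (RT3), 44.1 (RT5), 43.1 (RT8) and 44.2 (RT10) on chow and 41.2 (RT12), 39.6 (RT14), 40.8 (RT16), 37.9 (RT18) and 37.6 (RT19) on HFD. In iKO they were 44.6 (RT2), 42.4 (RT4), 43.5 (RT6), 47.7 (RT7) and 40.6 (RT9) on chow and 38.7 (RT11), 34.1 (RT13), 39.4 (RT15), 36.8 (RT17) and 39.0 (RT20) on HFD. No HFD library reached the lowest chow library in either genotype. Pccb fell by 14.1% in iKO (log2 difference -0.21, SE 0.05, limma adjusted p = 0.0068). Scaled by median of ratios, the iKO difference of Pccb was -0.13 (adjusted p = 0.211). In WT its log2 difference was -0.14 (SE 0.05, limma adjusted p = 0.0683) and did not pass. Its interaction was -0.07 (SE 0.07, 95% interval -0.21 to 0.07, limma adjusted p = 0.999), so that the genotypes were not shown to differ in it.

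The other 4 enzymes were not called for diet in either genotype. Acad8 (ENSMUSG00000031969.15, chr9:26974135-26999566, minus strand), the isobutyryl-CoA dehydrogenase, ranged in WT from 20.2 to 22.1 FPKM with chow and from 17.1 to 20.5 with HFD, and in iKO from 19.02 to 22.4 and from 18.1 to 21.3. Its log2 differences were -0.16 (limma adjusted p = 0.0874) and -0.09 (0.329). Mcee (ENSMUSG00000033429.10, chr7:64392607-64412125, plus strand), the epimerase, ranged from 78.2 to 85.8 and 71.4 to 78.5 FPKM in WT and from 70.9 to 82.7 and 66.0 to 72.3 in iKO, on chow and HFD in turn. Its differences were -0.13 (limma adjusted p = 0.0712) and -0.13 (0.0527), just outside the threshold in iKO. Mut (ENSMUSG00000023921.8, chr17:40934685-40961988, plus strand), the cobalamin-dependent mutase, ranged from 34.9 to 38.9 and 29.1 to 36.1 FPKM in WT and from 32.3 to 36.6 and 30.3 to 33.0 in iKO. Its differences were -0.14 (limma adjusted p = 0.0798) and -0.15 (0.0705).

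Hibch (ENSMUSG00000041426.12, chr1:52844929-52920986, plus strand), the hydrolase between Acad8 and Hibadh, stood closest to 0. Its chow means were 51.7 ± 1.59 (WT) and 49.0 ± 1.61 (iKO) and its HFD means 49.5 ± 1.36 (WT) and 49.0 ± 1.96 (iKO), in FPKM with SD over 5 mice. Its diet difference was -0.06 in WT (95% interval -0.14 to 0.02, limma adjusted p = 0.331) and 0.00 in iKO (95% interval -0.08 to 0.08, limma adjusted p = 0.992). The ratio of Hibadh to Hibch within a library, which no scaling between libraries alters, was 2.80 to 3.03 in WT on chow and 2.64 to 2.77 in WT on HFD. In iKO it was 2.74 to 3.09 on chow and 2.44 to 2.65 on HFD. These ratios did not overlap between diets in either genotype. The pair was chosen after its values were seen, and the ratio was not tested. A ratio of Mcee to Mut was also taken, at 2.1 to 2.46 (WT) and 2.06 to 2.45 (iKO) on chow. On HFD it was 2.06 to 2.68 (WT) and 2.15 to 2.33 (iKO), with overlap between diets and between genotypes.

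**Figure D2:**
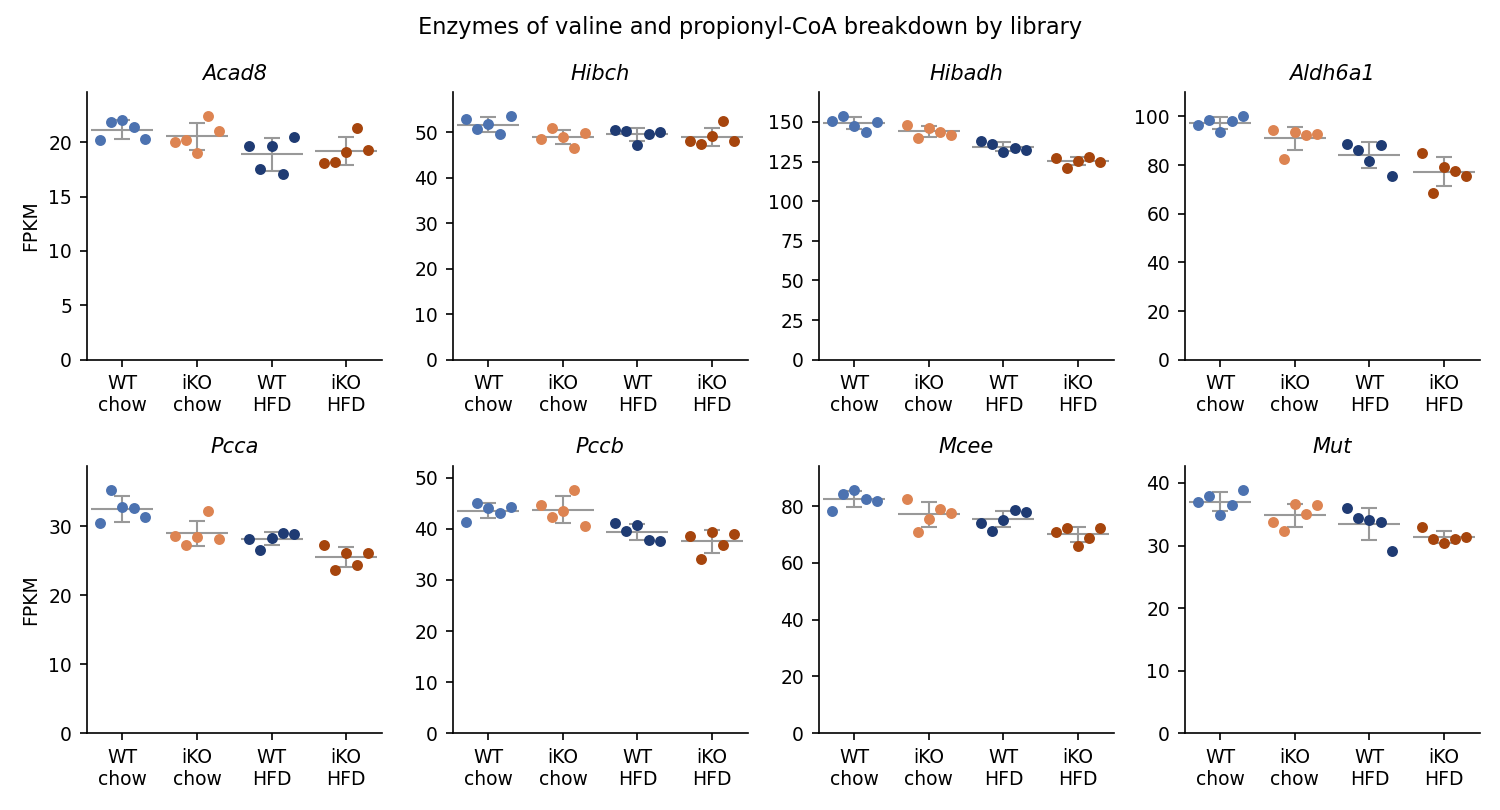
FPKM of the 8 enzymes (vertical axes, each from 0) in the 20 libraries by group, with the mean and SD of 5 mice in grey. As deposited, Hibadh shows no overlap between chow (139.78 to 153.52) and HFD (121.18 to 138.14), while Hibch lies at 46.63 to 53.50 in all groups.

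Between genotypes the members differed by small amounts. On chow 0 of 9 members were called (3 at an unadjusted p under 0.05), against 1.06% of all genes (0.72% lower and 0.344% higher). On HFD 0 of 9 were called (4 at an unadjusted p under 0.05), against 0.172% of all genes (0.0705% lower and 0.102% higher). Averaged over diets 1 of 9 was called, against 5.17% of all genes (1.16% lower and 4.01% higher). All 9 averaged differences lay below 0, with a median of -0.09, while 23.5% of all genes lay below 0 and their median was 0.06. Acad8 turned to 0.01 with TPM, and the other 8 kept their direction under that scaling and under median of ratios.

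The called member was Pcca, which was lower in iKO on average (log2 difference -0.15, SE 0.04, limma adjusted p = 0.0194) and kept its call when any 1 library was left out (adjusted p up to 0.0433). On chow its means were 32.5 ± 1.83 and 29.0 ± 1.86 FPKM (SD, n = 5), and on HFD 28.2 ± 0.954 and 25.5 ± 1.45. On each diet 4 of 5 iKO libraries lay below the lowest WT library. For Pccb the averaged difference was -0.03 (SE 0.03, limma adjusted p = 0.573). The ratio of Pcca to Pccb within a library was 0.71 to 0.782 in WT and 0.643 to 0.696 in iKO on chow, without overlap. On HFD it was 0.672 to 0.769 in WT and 0.661 to 0.706 in iKO, with overlap. This pair was also chosen after its values were seen.

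Hibadh was lower in every iKO library than in every WT library on HFD, at 121 to 128 against 131 to 138 FPKM (log2 difference -0.10, SE 0.03, limma adjusted p = 0.206). Averaged over diets, Hibadh stood at -0.07 (limma adjusted p = 0.0616), Mcee at -0.10 (0.0591), Aldh6a1 at -0.11 (0.0899) and Mut at -0.09 (0.139). Hibch stood at -0.05 (limma adjusted p = 0.298) and Acad8 at -0.01 (0.894). Under median-of-ratios scaling the count rose to 7 of 9, with Abat, Hibch, Hibadh, Aldh6a1, Mcee and Mut called beside Pcca, at log2 differences from -0.12 for Hibch to -0.32 for Abat. That scaling gave 98 genes higher and 305 lower of all genes, in place of 512 and 148. Summed fibroblast markers had higher means in iKO with overlapping ranges, at 365 to 441 (WT) and 405 to 802 (iKO) FPKM on chow and 361 to 394 (WT) and 345 to 680 (iKO) on HFD, with 0 of 7 called and none at 0. Their part in the genotype differences was not tested.

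None of the 9 interactions between genotype and diet was called by limma, and none reached an unadjusted p under 0.05. Of all genes 0.0313% were called. The interactions of the members ran from -0.07 for Pccb to 0.07 for Acad8, and the 95% intervals of these reached from -0.21 to 0.07 and from -0.10 to 0.23.

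**Figure D3:**
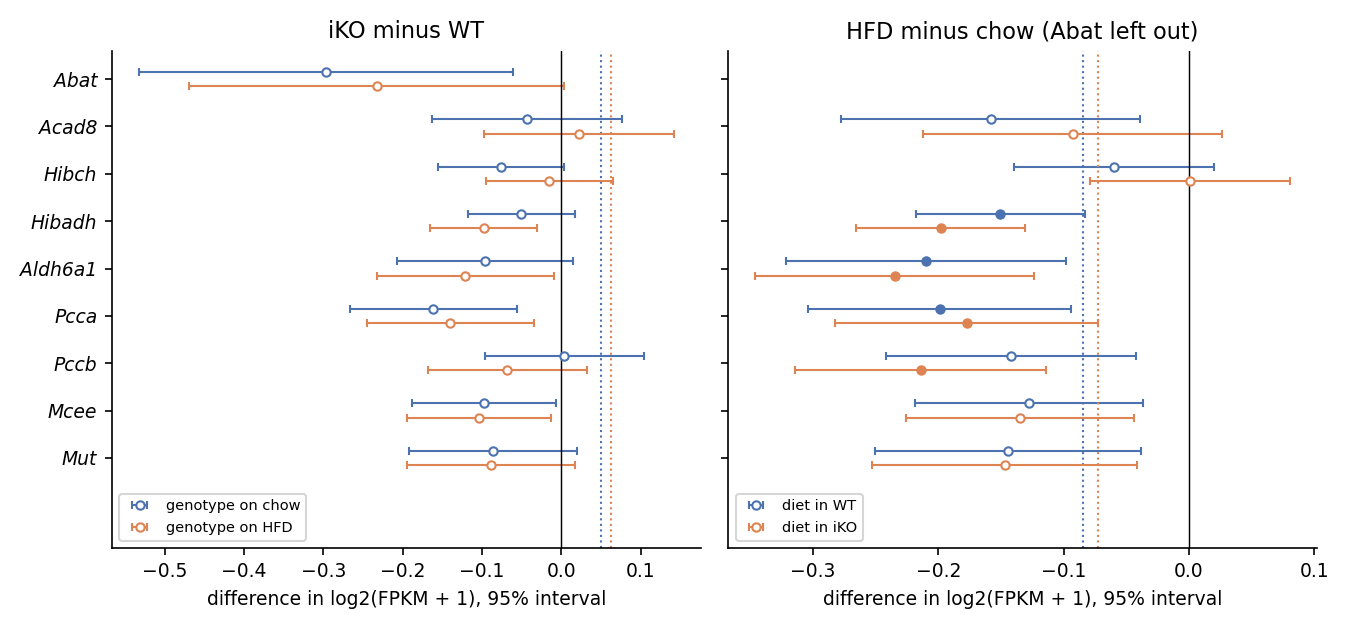
Differences in log2(FPKM + 1) with 95% intervals between genotypes (left) and diets (right, Abat left out), filled where the adjusted p was under 0.05, with dotted lines at the median of all genes. Diet calls are those of Hibadh, Aldh6a1 and Pcca in both genotypes and of Pccb in iKO, and no genotype difference on a single diet was called.

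**Figure D4:**
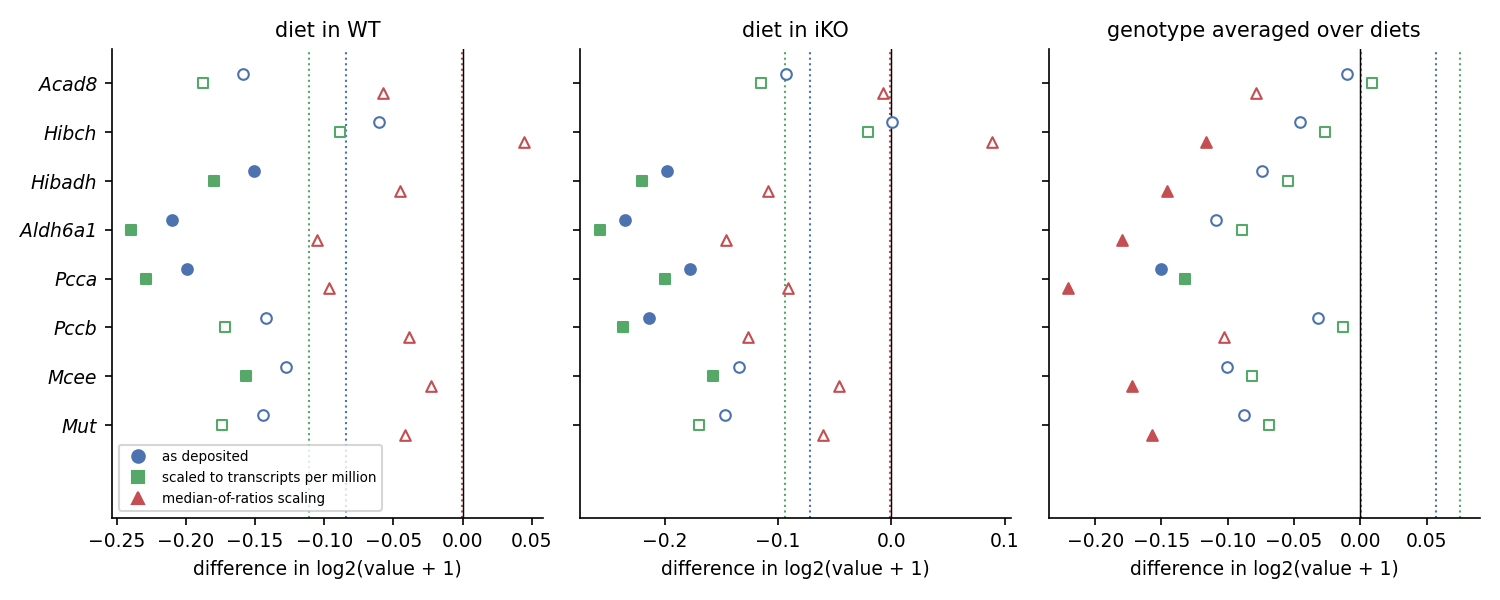
Log2 differences of the 8 enzymes under 3 scalings of the same FPKM, filled where the adjusted p was under 0.05, with dotted lines at the median of all genes under each. For diet, 3 (WT) and 4 (iKO) filled points as deposited become 0 and 0 under median of ratios, and for genotype 1 becomes 6.

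Mice that were low or high for 1 enzyme within their group were not all so for the others. After subtraction of group means, the mean residual of the 8 enzymes was lowest in RT13 (iKO HFD, -0.07, with 7 of 8 below the group mean) and RT4 (iKO chow, -0.06, with 7 of 8 below). It was highest in RT7 (iKO chow, 0.05). Over the 20 libraries the residuals of Aldh6a1 and Mut had a Pearson r of 0.71, those of Pcca and Pccb 0.65 and those of Hibadh and Aldh6a1 0.65. The lowest was that of Hibch and Pcca, at -0.55. The points share their library and its scaling, so these coefficients are descriptions. Residuals of Abat had an r between -0.33 with Acad8 and 0.24 with Hibadh.

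Over the 20 libraries the genes whose log2 values were most like those of Abat were Oxct1 (Pearson r 0.963), Gnb3 (0.952), Scgb1c1 (0.947), Ifit1bl2 (0.947) and Ddx1 (0.939). Oxct1 encodes the mitochondrial CoA transferase of ketone body use, and its group means were 414, 396, 313 and 294 FPKM in WT chow, iKO chow, WT HFD and iKO HFD. Gnb3, a G protein beta subunit, had means of 8.37, 7.84, 2.67 and 2.37 in the same order. Hibadh ranked 19th of all genes with an r of 0.913, and Aldh6a1 ranked 194th with 0.813. These coefficients rest largely on the gap between diets that chose Abat. On residuals from the group means the most alike were Casc4 (0.829), Cdh22 (0.805), Cops3 (0.802), 4933431E20Rik (0.797) and Zfp113 (0.76).

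Around Abat, 19 genes of GABA and beta-alanine metabolism were looked up, and 7 reached the filter. ABAT is best known from neurons, and 9 summed markers of neurons and Schwann cells stood at 5.82 to 9.17 (WT) and 8.57 to 12.7 (iKO) FPKM on chow and at 6.03 to 8.60 (WT) and 7.60 to 9.24 (iKO) on HFD, with 0 of the 3 tested called for diet (limma). The GABA-forming decarboxylases Gad1 and Gad2 were at 0 to 0.05 and 0 to 0.08 FPKM, and the transporters Slc6a11, Slc6a12 and Slc6a13 and the vesicular carrier Slc32a1 were all under the filter. Aldh5a1, which oxidises the succinic semialdehyde that ABAT forms from GABA, fell with HFD in WT from 8.77 ± 0.457 to 7.18 ± 0.389 FPKM (SD, n = 5; log2 difference -0.26, SE 0.05, limma adjusted p = 0.0035). Aldh9a1, an aminobutyraldehyde dehydrogenase, rose with HFD in iKO (log2 difference 0.27, SE 0.08, limma adjusted p = 0.0306). Slc6a6, the taurine transporter that also carries beta-alanine, was higher in iKO averaged over diets (0.19, SE 0.05, limma adjusted p = 0.0297). In all, 0 rose and 1 fell of 7 with diet in WT, and 1 rose and 0 fell in iKO, with medians of -0.12 and -0.09. Of all genes, 0.767% rose and 7.27% fell in WT and 1.65% rose and 8.36% fell in iKO, with medians of -0.08 and -0.07. Under median-of-ratios scaling neither Aldh5a1 nor Slc6a6 was called, and Aldh9a1 was (0.35, adjusted p = 0.0144). Of the 7 genes, 0 were then called for diet in WT, 2 rose with HFD in iKO, and 1 was lower in iKO averaged over diets. Of all genes under that scaling, 178 rose and 149 fell in WT, and 328 rose and 232 fell in iKO. Averaged over diets 98 were higher and 305 lower in iKO.

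Of 21 other genes of branched-chain amino acid breakdown 20 were tested. With HFD 2 rose and 10 fell in WT, and 3 rose and 13 fell in iKO, against 0.767% of all genes higher and 7.27% lower in WT and 1.65% and 8.36% in iKO. Those that rose were Hadha and Hadhb, the trifunctional protein of long-chain fatty acid oxidation, and in iKO also Acat1, named after its values were seen. Those that fell included the decarboxylase subunit Bckdhb (-0.28 and -0.43, limma adjusted p = 0.0123 and 0.000243), Ivd of the leucine branch (-0.35 and -0.41, adjusted p = 0.00103 and 7.85e-05), Acadsb of the isoleucine branch (-0.30 and -0.46, adjusted p = 0.00286 and 1.36e-05) and Mccc1 (-0.21 and -0.29, adjusted p = 0.00466 and 0.000109). Echs1, the hydratase between Acad8 and Hibch, is added because it is a step of the same route. It fell in iKO (-0.22, limma adjusted p = 0.00499). Under median-of-ratios scaling 3 rose and 0 fell in WT, and 3 rose and 4 fell in iKO, namely Bckdhb, Ivd, Acadsb and Mccc1. Of all 12775 genes, 178 rose and 149 fell in WT under that scaling, and 328 rose and 232 fell in iKO.

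With genotype 3 of these 20 fell on chow, against 0.72% of all genes, namely Hadha (-0.40, limma adjusted p = 4.61e-06), Hadhb (-0.32, adjusted p = 1.32e-06) and Acat1 (-0.18, adjusted p = 0.0106). On HFD 0 were called by limma (8 at an unadjusted p under 0.05), against 0.172% of all genes. Averaged over diets 5 fell, against 1.16% of all genes, with Bckdhb and Ivd added. Under median of ratios 9 fell, while of all 12775 genes 305 were lower and 98 higher.

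The cobalamin and biotin supply of the propionate enzymes held 13 tested genes. Mmab, which makes the adenosylcobalamin that MUT needs, fell with HFD in WT from 12.5 ± 1.06 to 10.1 ± 0.336 FPKM (SD, n = 5; log2 difference -0.28, SE 0.05, limma adjusted p = 0.00279). In iKO it fell from 11.04 ± 0.481 to 8.85 ± 0.434 (log2 difference -0.29, SE 0.05, limma adjusted p = 0.00139). It was also lower in iKO averaged over diets (-0.17, SE 0.04, limma adjusted p = 0.0161). No other gene of the 13 was called for diet, against 8.04% of all genes in WT and 10% in iKO. Tcn2, a cobalamin carrier, was higher in iKO averaged over diets (0.14, SE 0.04, limma adjusted p = 0.0483). Under median of ratios Mmab kept its calls in iKO (-0.21, adjusted p = 0.0392) and for genotype (-0.23, adjusted p = 0.00145), lost that in WT, and Tcn2 was not called. Under that scaling Mmadhc, which directs cobalamin to mitochondria or cytosol, rose with HFD in WT (0.20, adjusted p = 0.0262).

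Of 10 neighbours of propionyl-CoA and its exit to the cycle, 0 rose and 1 fell with HFD in WT, and 3 rose and 1 fell in iKO. The shares of all genes were 0.767% higher and 7.27% lower in WT and 1.65% and 8.36% in iKO. Pcx, pyruvate carboxylase, another route that refills the cycle, fell from 7.76 ± 0.348 to 5.11 ± 0.362 FPKM in WT (SD, n = 5; log2 difference -0.52, SE 0.07, limma adjusted p = 7.15e-05). In iKO it fell from 7.19 ± 0.814 to 4.71 ± 0.458 (log2 difference -0.52, SE 0.07, limma adjusted p = 3.89e-05). Both calls held under median of ratios (-0.43, adjusted p = 0.000845, and -0.44, adjusted p = 0.000265). Mlycd, malonyl-CoA decarboxylase, rose with HFD in iKO (0.43, limma adjusted p = 0.00173), as did Crat (0.37, adjusted p = 0.000767) and Ehhadh (0.45, adjusted p = 0.0187). Mlycd was lower in iKO on chow (-0.43, limma adjusted p = 0.00598). The succinyl-CoA ligase genes Suclg1, Suclg2 and Sucla2, which act after MUT, were not called for diet or genotype as deposited, and under median of ratios Suclg1 was lower in iKO averaged over diets (-0.14, adjusted p = 0.0397). In that averaged contrast 1 of the 10 genes was lower as deposited, against 1.16% of all genes. Under median of ratios 4 of 10 were lower, while of all genes 305 were lower and 98 higher.

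Of 10 other aldehyde dehydrogenases, 0 rose and 3 fell with HFD in WT, where 0.767% of all genes rose and 7.27% fell, and 2 rose and 5 fell in iKO, where 1.65% rose and 8.36% fell. Aldh1b1 (-0.42 and -0.42, limma adjusted p = 0.00108 and 0.000477), Aldh4a1 of proline breakdown (-0.33 and -0.36, adjusted p = 0.000902 and 0.000237) and Aldh7a1 of lysine breakdown (-0.26 and -0.24, adjusted p = 0.012 and 0.0138) fell in both genotypes. Aldh2 fell in iKO (-0.23, limma adjusted p = 0.00632), and Aldh1l2 (0.48, adjusted p = 0.0103) and Aldh1a1 (0.43, adjusted p = 0.0191) rose in iKO. Under median of ratios 1 rose and 2 fell in WT and 2 rose and 2 fell in iKO. Of all 12775 genes, 178 rose and 149 fell in WT under that scaling, and 328 rose and 232 fell in iKO.

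**Figure D5:**
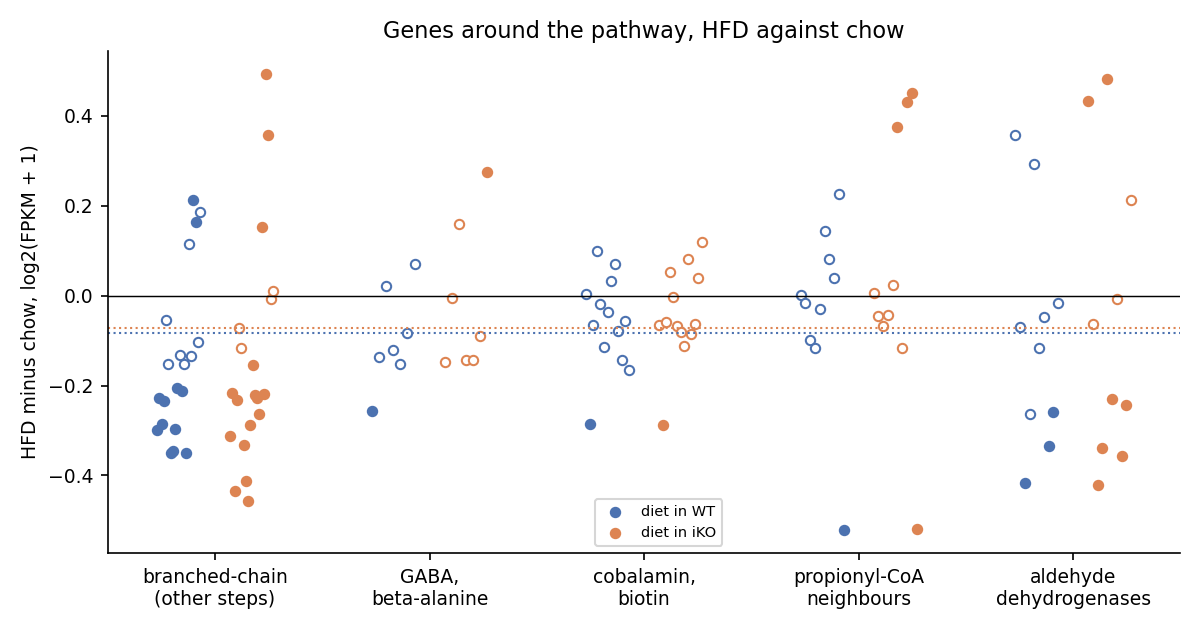
Difference between HFD and chow in log2(FPKM + 1) for each tested gene of 5 lists around the pathway, in WT (blue) and iKO (orange), filled where the adjusted p was under 0.05, with dotted lines at the median of all genes. The lowest points of the propionyl-CoA list are Pcx at -0.52 in both genotypes, and the highest of the branched-chain list is Hadha at 0.49 in iKO.

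Protein-coding genes annotated on the opposite strand overlapped 3 members, and whether the counting used strand is not stated. Ggact, which overlaps Pcca, was at 6.94 to 9.85 FPKM, Cenpq beside Mut at 2.42 to 4.03 and Bbof1 beside Aldh6a1 at 0.50 to 1.16. Reads of each pair may not be separable. No other annotated transcript matched a member at 95% identity or more over at least 200 bases.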

How the data were processed

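Male mouse left ventricle RNA was made into poly(A) TruSeq libraries and read as 100 nt single ends at a stated depth of 50 M, per the labels' protocols. The deposited values are FPKM per gene to 2 decimals, as the authors made them. The submitters' processing notes name Bowtie2, RSEM, DESeq2 and mm9, without versions, parameters or strand setting. Of 25052 gene IDs, 24938 are in GENCODE M21 on GRCm38, which conflicts with mm9, so coordinates are on GRCm38 by ID. The gene and transcript ID columns of the files were used for matching only. Because the files hold FPKM and not counts, no count test was run. The filter kept 12775 genes at 0.5 FPKM or more in 5 or more libraries. Tests used log2(FPKM + 1), a scale that shrinks changes of low genes. Limma 3.58.1 in R 4.3.3, with trend and robust moderation, took the 20 libraries together as 4 group means, and p-values were adjusted by Benjamini-Hochberg over all genes, with calls at 0.05. Tables and plots used Python 3.11.15 with pandas 2.3.3, numpy 2.4.6 and matplotlib 3.10.9. The fit was tested on simulated data with known changes. Each gene was drawn independently, with no shift shared by the genes of a library, so the simulation does not bear on the choice of scaling. Its changes were set in log2(FPKM + 1), in genes with a mean there of 1 or more. Over the comparisons between single groups the fit recovered 2% to 8% of 1.1-fold, 46% to 60% of 1.25-fold and 96% to 100% of 2-fold changes. A lack of a call therefore says little about changes near 1.1-fold.

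The reads per library were inferred from the smallest spacing of FPKM values in genes of 130 to 450 nt, where 50.3% to 68.0% of values were whole to within 0.05 reads, so whole reads were not recovered and the depth is approximate. No 2 libraries were identical. Alternatives were another pseudocount, no filter, median-of-ratios scaling, no trend or robust moderation, the 2 groups of a contrast alone, leaving out each library, leaving out RT1 and RT4 together and, added later, TPM (each library's FPKM brought to an equal total).

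The members, the gene lists and the tests were chosen with earlier results of these data known. Named genes were the 9 members, up to 6 called genes of each list by smallest p, the 5 genes most like Abat by each of 2 correlations, and Acacb. Further genes are marked where they appear. Markers of endothelial, smooth muscle, macrophage and erythroid cells had no called gene for diet or genotype. The atrial list had 1 of 2 tested genes lower with diet in WT as deposited, and 0 under median of ratios. The fibroblast list had 1 of 7 lower with diet in iKO. Of the adipocyte list 2 genes were tested, both higher with HFD in iKO, and Ucp1 was not listed. Of the neuron and Schwann cell list 3 genes were tested, with 1 higher in iKO averaged over diets.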

Additional observations from a re-analysis of the deposited data

Results flagged for a closer look

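In 3 of the 36 sets of 5 libraries (9 genes in 4 groups) 1 library lay far from the other 4 by Dixon's test, where chance gives about 1 in 20. Hibch was at 47.17 FPKM in RT16 of WT on HFD, with the nearest library at 49.56 and a gap of 0.711 of the range, just past the critical value of 0.71. Aldh6a1 was at 82.52 FPKM in RT4 of iKO on chow, below a nearest library at 92.24, and RT4 is also the iKO library with the highest atrial markers (358 FPKM). Pcca was at 32.17 FPKM in RT7 of iKO on chow, above a nearest library at 28.67, and RT7 is the library with the lowest estimated depth (12.5 M). Whether either feature of these libraries bears on the values was not tested.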

How the results depend on the processing

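Of 1232 alternative values for single members, 1171 were labelled the same, 25 gained and 14 lost a call, 20 changed direction and 2 moved, both Abat's diet differences with a pseudocount of 0.1 (-2.10 in WT and -2.14 in iKO). The same means an unchanged direction and side of the threshold, or for Abat's untested diet differences an unchanged direction and a similar size. Of the 27 settings 20 left out a single library, so most of these values came from fits close to the main one. No paired analysis was possible because no replicate number occurs in more than 1 group.

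Median-of-ratios scaling gave 0 called enzymes for diet in WT and 0 in iKO, and 7 called members for genotype averaged over diets. It gave 327 called genes for diet in WT, 560 for diet in iKO, 403 for genotype averaged and 0 for the interaction. It turned Hibch in WT to 0.0441 for diet, Pccb on chow to -0.0585 and Acad8 on HFD to -0.0542 for genotype. Without the filter the called genes were 7 for genotype on HFD, 259 averaged, 622 for diet in WT, 830 for diet in iKO and 0 for the interaction. Without trend and robust moderation they were 14 on HFD and 0 for the interaction, in place of 22 and 4. Without RT1 and RT4 they were 87 on chow, 337 averaged, 839 for diet in iKO and 0 for the interaction, and Pccb on chow turned to -0.0031. With the 2 groups alone they were 5 on HFD and 710 for diet in iKO, and Pcca lost its call there (adjusted p = 0.087), as it did without the filter (0.0557). With TPM 14 genes were called on HFD, and Acad8 averaged turned to 0.0085, Hibch on HFD to 0.0077 and Hibch for diet in iKO to -0.0208. With a pseudocount of 0.1 the Abat interaction turned to -0.0382. The cause of these changes was not tested.

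Leaving out each library in turn gave 92 to 151 called genes on chow, 6 to 39 on HFD, 336 to 1042 averaged, 623 to 1182 for diet in WT, 872 to 1475 for diet in iKO and 0 to 5 for the interaction. The called members were 1 to 3 averaged over diets, 2 to 3 for diet in WT, 3 to 6 for diet in iKO and 0 for the others. For genotype averaged, Abat was called without RT4, RT10, RT11 or RT15, Aldh6a1 without RT11 or RT19, Mcee without RT1, RT2 or RT14 and Mut without RT19. For diet in iKO, Mcee was called without RT4, RT14 or RT19 and Mut without RT4 or RT19. Directions changed for values near 0, namely Acad8 averaged (-0.0289 to 0.0042), Acad8 on HFD (-0.0148 to 0.0515), Hibch for diet in iKO (-0.0226 to 0.0155) and Pccb on chow (-0.0267 to 0.0301). Depth limits Abat on HFD, at 20.3 estimated reads per kilobase in RT20.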
